A study of Mus musculus with 26 samples.

Results

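The genes described here are 75 DNA repair genes of 16718 genes measured in a chemical reprogramming experiment in mouse cells. They were taken by symbol from the Fanc, Rad, Xrcc, Ercc, Brca, Parp, Msh, Mlh and Neil families and the ligases Lig1, Lig3 and Lig4, and Ung, Tdg, Ogg1, Apex1 and Exo1 were added by name. By textbook role, or by name alone for Rad54l2, the set holds 14 genes of homologous recombination. It holds 10 of the Fanconi anaemia pathway, 6 of mismatch repair and 13 of base excision and single-strand break repair. It also holds 9 genes of nucleotide excision repair, 4 of end joining, 5 of the checkpoint clamp and lesion bypass, 9 other ADP-ribosyltransferases and 2 meiotic homologues. The last 3, Ercc6l, Ercc6l2 and Rad21, carry a matching name but other or further tasks, such as chromosome cohesion for Rad21.

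RNA was sequenced in 26 libraries. A course without Chir, usually an inhibitor of the kinase GSK3, had 5 libraries, 1 on each of days 6, 12, 18, 22 and 30. BrdU is bromodeoxyuridine, an analogue of thymidine that cells build into new DNA. The course without it and the course with all chemicals had 7 libraries each, on the same days and on days 36 and 40. MEF, mouse embryonic fibroblasts before treatment (day 0), had 1 library, and CiPSC, established chemically induced pluripotent stem cells, had 6. The labels name no strain, age, genetic change or other chemical of the mixture, and they do not say whether the CiPSC libraries came from separate lines. Because each course had 1 library a day, days served as the only repeats. Successive days of 1 culture resemble each other, which can make these p-values too small, and they do not speak for a second culture.

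Mismatch repair reads new DNA for mispaired bases: Msh6 and Msh3 take part in finding them, Mlh3 in the steps that follow, and Exo1 degrades the strand that holds the error. In base excision repair, glycosylases such as Ung and Tdg remove single altered bases, Apex1 opens the strand, and Xrcc1 with Lig3, or Lig1, closes it. Homologous recombination and the Fanconi anaemia pathway mend broken or cross-linked DNA with a copied chromosome and are used mainly in and after replication, whereas end joining and nucleotide excision repair work throughout the cell cycle. Many genes of the replication-linked pathways are known targets of E2F factors, which drive transcription on entry into S phase.

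The values are the authors' scores, quantile-normalized to 1 common distribution, and carry no sequencing depth. Library totals lay between 4143561 and 4162600 and the median gene at 76 to 77. No member reached the common ceiling of 21988, and 6 members were listed at 0 in at least 1 library. All 75 members passed the filter on low values (a mean of at least 1) in each comparison. Fibroblast markers summed to 75596 in MEF and pluripotency markers to between 32495 and 46406 in CiPSC, where fibroblast markers summed to between 101 and 513. Col1a1, Col1a2 and Col3a1 stood at 21988 in MEF, and Dppa5a in CiPSC libraries 1, 2, 3 and 5. Marker sums here and below therefore rest largely on few genes. Macrophage and blood markers summed to 4983 in the MEF library, above the 119 to 1342 of the courses. Values by day are given below in the order of the days, and changes are differences of log2(value + 1) with the standard error moderated by limma. Calls rest on a p under 0.05 after Benjamini-Hochberg adjustment over all genes tested. In RNA from whole cultures, fewer cells of a type and less RNA per cell cannot be told apart.

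**Figure D1:**
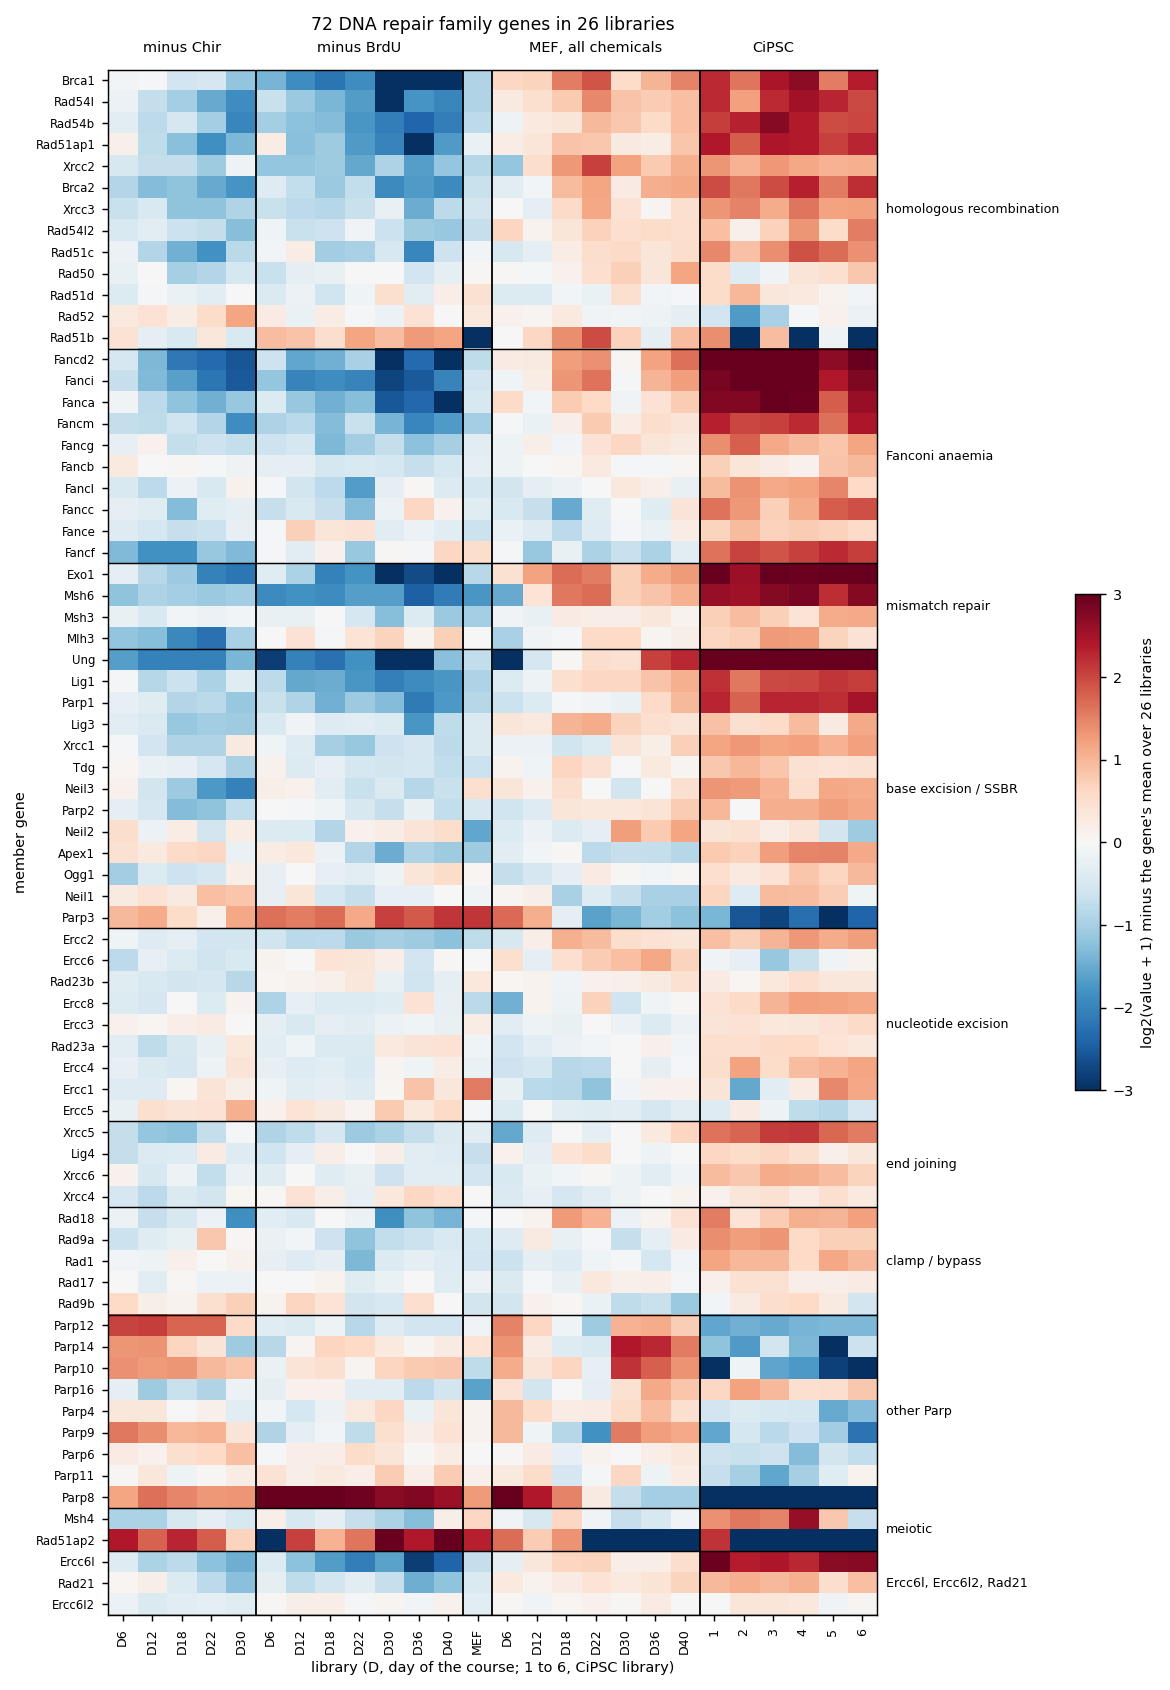
Level of 72 of the 75 genes in each of the 26 libraries, as log2(value + 1) minus the gene's own mean over the libraries, with colours clipped at 3 log2 units either way. Rows run by repair class and columns by course and day. Mismatch repair, homologous recombination and Fanconi anaemia genes are mostly blue in the courses without Chir and without BrdU and red in CiPSC, and Parp8 and Parp3 run the other way.

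Leaving out BrdU lowered many of the repair genes. Of the 75 members, 32 (42.7%) were lower and 4 (5.33%) higher without BrdU than with all chemicals, where 21.5% and 21.1% of all 16308 genes tested were lower and higher. The median change was -0.52 over the members and 0.02 over all genes tested. In 20 members all 7 values without BrdU lay below all 7 values with all chemicals, as they did in 4.96% of all genes. In 1 member they all lay above, against 4.21% of all genes. On days 6 to 30 alone, 24 members were lower and 2 higher. In that setting 3735 of all genes were called in either direction, against 6946 over all 7 days. Ung, Tdg, Xrcc1, Parp3 and Xrcc4 were among the members not called on days 6 to 30 (adjusted p = 0.0654, 0.0621, 0.105, 0.056 and 0.0587 in limma). Among the 72 members given one by one, lower calls took in 9 of 13 genes of homologous recombination, 6 of 10 of the Fanconi anaemia pathway, 3 of 4 of mismatch repair and 6 of 13 of base excision and single-strand break repair. Lower calls reached 1 of 9 genes of nucleotide excision repair and 0 of 4 of end joining in limma, where Xrcc5 alone was lower at an unadjusted p under 0.05.

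Mismatch repair held some of the widest gaps. Exo1, the exonuclease that removes the mispaired strand (chr1:175880768-175911396), stood at 34, 22, 10, 12, 0, 6 and 0 without BrdU, against 60, 102, 141, 128, 72, 96 and 108 with all chemicals. The courses did not overlap, and the gene was listed at 0 on days 30 and 40 without BrdU (change -3.82 ± 0.67, adjusted p = 0.00264). Msh6, which recognises single mispaired bases (chr17:87975050-87990892), stood at 165, 177, 168, 198, 197, 114 and 146 without BrdU and at 217, 826, 1875, 1985, 1027, 1138 and 1302 with all chemicals. Its ranges too were apart, with the widest gap on days 18 and 22 (change -2.60 ± 0.34, adjusted p = 0.000954). Msh3, which recognises small loops, fell by less, with lowest, median and highest values of 32, 60 and 79 without BrdU against 68, 91 and 101 with all chemicals (change -0.65 ± 0.21, adjusted p = 0.0355). Its courses overlapped. Mlh3 was not called, at 58, 80 and 99 without BrdU against 30, 64 and 91 with all chemicals (change 0.28 ± 0.18).

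In base excision repair the fall lay with the uracil glycosylase Ung, the ligases and the strand break sensor Parp1, and several other glycosylases were not called. Ung (chr5:114130366-114139321) stood at 3, 6, 5, 7, 1, 2 and 11 without BrdU and at 2, 19, 28, 40, 38, 117 and 136 with all chemicals. Day 6 ran the other way by 1 unit of the score, and from day 12 on every value without BrdU was below its partner (change -2.69 ± 0.62, adjusted p = 0.00836). Lig1 (chr7:13277175-13311426), which seals replication fragments and long repair patches, stood at 168, 100, 104, 86, 70, 78 and 86 without BrdU and at 219, 263, 408, 452, 448, 534 and 616 with all chemicals. The courses ran apart with time and did not overlap (change -2.05 ± 0.29, adjusted p = 0.00117). Parp1 (chr1:180568891-180600999), which binds DNA breaks and makes poly(ADP-ribose), stood at 324, 278, 189, 241, 208, 119 and 157 without BrdU and at 332, 392, 494, 492, 454, 776 and 1014 with all chemicals (change -1.35 ± 0.32, adjusted p = 0.00976). Here too every value without BrdU was below every value with all chemicals.

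Lig3, the ligase that works with Xrcc1, had lowest, median and highest values of 66, 169 and 208 without BrdU against 275, 320 and 488 with all chemicals, with no overlap (change -1.22 ± 0.20, adjusted p = 0.00197). Its scaffold Xrcc1 had 88, 128 and 178 without BrdU and 130, 174 and 324 with all chemicals and overlapped (change -0.64 ± 0.18, adjusted p = 0.0204, a call lost without day 30). Tdg is the glycosylase that removes thymine and oxidised forms of methylcytosine from pairs with guanine. It had 244, 282 and 448 without BrdU against 376, 442 and 642 with all chemicals (change -0.63 ± 0.14, adjusted p = 0.00717). Apex1, the nuclease that opens the strand at an empty site, was not called, at 142, 217 and 502 without BrdU and 221, 248 and 414 with all chemicals (change -0.09 ± 0.16). Nor was Ogg1, which removes oxidised guanine, at 32, 36 and 60 without BrdU and 24, 38 and 48 with all chemicals (change 0.18 ± 0.20). Neil3, a glycosylase of replicating cells, was not called either, at 19, 26 and 40 without BrdU and 24, 39 and 50 with all chemicals (change -0.52 ± 0.22). Parp3, a break-activated relative of Parp1 (chr9:106470322-106476949), rose: it stood at 316, 292, 321, 220, 417, 356 and 440 without BrdU against 328, 212, 82, 32, 38, 48 and 42 with all chemicals. The courses were alike on day 6 and apart from day 18 on (change 2.11 ± 0.44, adjusted p = 0.00536).

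In homologous recombination, Brca1 fell furthest. Brca1, which helps prepare broken ends for repair (chr11:101488761-101551955), stood at 34, 24, 19, 24, 8, 8 and 8 without BrdU and at 140, 144, 264, 340, 134, 186 and 254 with all chemicals. The highest value without BrdU was below the lowest with all chemicals (change -3.59 ± 0.33, adjusted p = 0.000345). Brca2, a mediator of strand exchange (chr5:150522297-150570147), stood at 54, 42, 32, 42, 18, 21 and 18 without BrdU and at 56, 66, 137, 162, 83, 150 and 158 with all chemicals, the day 6 values being close (change -1.81 ± 0.36, adjusted p = 0.00445). Rad54l, a motor protein of strand exchange, stood at 33, 24, 20, 16, 5, 15 and 13 without BrdU against 64, 75, 92, 146, 97, 91 and 100 with all chemicals, with no overlap (change -2.46 ± 0.35, adjusted p = 0.0012). Rad54b, Rad51ap1, Xrcc2, Xrcc3, Rad50 and Rad54l2, the last counted in this class by name alone, were also lower, with changes between -2.22 (Rad54b) and -0.71 (Rad50). The 4 genes that were not called were Rad51b, Rad51c, Rad51d and Rad52, with changes between -0.91 (Rad51c) and 0.23 (Rad51b).

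Of the 10 Fanconi anaemia genes, 6 fell, with Fancd2 and Fanci furthest. Fancd2 and Fanci form the clamp that closes on DNA at a cross-link. Fancd2 (chr6:113531640-113597020) stood at 22, 11, 12, 17, 1, 6 and 1 without BrdU against 41, 42, 84, 90, 36, 81 and 110 with all chemicals (change -3.04 ± 0.53, adjusted p = 0.00268). Fanci (chr7:79392312-79450266) stood at 17, 9, 10, 9, 5, 6 and 9 without BrdU against 36, 46, 100, 123, 38, 81 and 94 with all chemicals (change -2.80 ± 0.33, adjusted p = 0.00074). Neither pair of ranges overlapped. Fanca, a subunit of the core complex that ubiquitinates the clamp, had 34, 20, 16, 18, 7, 8 and 1 without BrdU and 68, 43, 77, 69, 42, 62 and 78 with all chemicals, with the lowest value on day 40 without BrdU (change -2.38 ± 0.48, adjusted p = 0.00473). Fancm, the motor that brings the core complex to DNA, and the core subunits Fancg and Fancb were lower (changes -1.52, -1.16 and -0.50). Fancl, the ubiquitin ligase of the complex, was not called (change -0.42 ± 0.25), nor were the core subunits Fancc, Fance and Fancf (changes 0.06, 0.35 and 0.51).

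Of the 9 nucleotide excision repair members 1 fell and 1 rose, and of the 4 end joining members 1 rose. Ercc2, a helicase of the general transcription and repair factor TFIIH, had lowest, median and highest values of 46, 55 and 72 without BrdU against 78, 149 and 230 with all chemicals (change -1.38 ± 0.23, adjusted p = 0.00209). Ercc3, the other helicase of the same complex, was not called, at 178, 199 and 224 without BrdU against 184, 214 and 244 with all chemicals (change -0.07 ± 0.11). Ercc5, the nuclease that cuts 3′ of a lesion (chr1:44146948-44181260), rose and was the member with no overlap in that direction, at 294, 354, 326, 286, 462, 332 and 398 without BrdU against 200, 268, 216, 208, 214, 190 and 216 with all chemicals (change 0.68 ± 0.11, adjusted p = 0.00218). Ercc1, a subunit of the nuclease that cuts on the 5′ side, was higher without BrdU on 7 of 7 days but missed the threshold, with 50, 60 and 120 against 28, 56 and 72 with all chemicals (change 0.44 ± 0.16, adjusted p = 0.051). In end joining, Xrcc5 and Xrcc6, the Ku proteins that hold broken ends, were not called. Xrcc6 had 112, 137 and 172 without BrdU against 126, 156 and 177 with all chemicals, and Xrcc5 had 70, 88 and 110 without BrdU against 51, 148 and 235 with all chemicals. Lig4, the end joining ligase, was not called, at 36, 45 and 64 without BrdU against 46, 56 and 82 with all chemicals (change -0.27 ± 0.16). Its partner Xrcc4 rose, with 123, 161, 136, 100, 149, 186 and 170 without BrdU against 88, 100, 84, 96, 107, 119 and 128 with all chemicals (change 0.49 ± 0.12, adjusted p = 0.0111).

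Among the remaining classes, Rad18, the ubiquitin ligase that marks PCNA at stalled forks, fell (change -1.17 ± 0.21, adjusted p = 0.00289), and the clamp and clamp loader genes Rad1, Rad9a, Rad9b and Rad17 were not called. Of the 9 other ADP-ribosyltransferases, Parp12, an antiviral enzyme, was lower (change -1.01 ± 0.27, adjusted p = 0.0145). Parp8, a little studied member of the family (chr13:116850842-117026019), was higher, at 1392, 1142, 904, 748, 644, 681 and 592 without BrdU against 812, 518, 275, 118, 59, 48 and 48 with all chemicals (change 2.44 ± 0.39, adjusted p = 0.00184). Both courses were lower on day 40 than on day 6, and the course without BrdU stood higher on each of the 7 days. Ercc6l, a motor of mitotic chromosomes, and the cohesin subunit Rad21 were lower (changes -2.07 and -1.10). Neither meiotic homologue was called. Rad51ap2 was listed at 0 on day 6 without BrdU and on days 22, 30, 36 and 40 with all chemicals, with 0, 33, 16, 24, 63, 42 and 66 without BrdU against 25, 13, 20, 0, 0, 0 and 0.

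**Figure D2:**
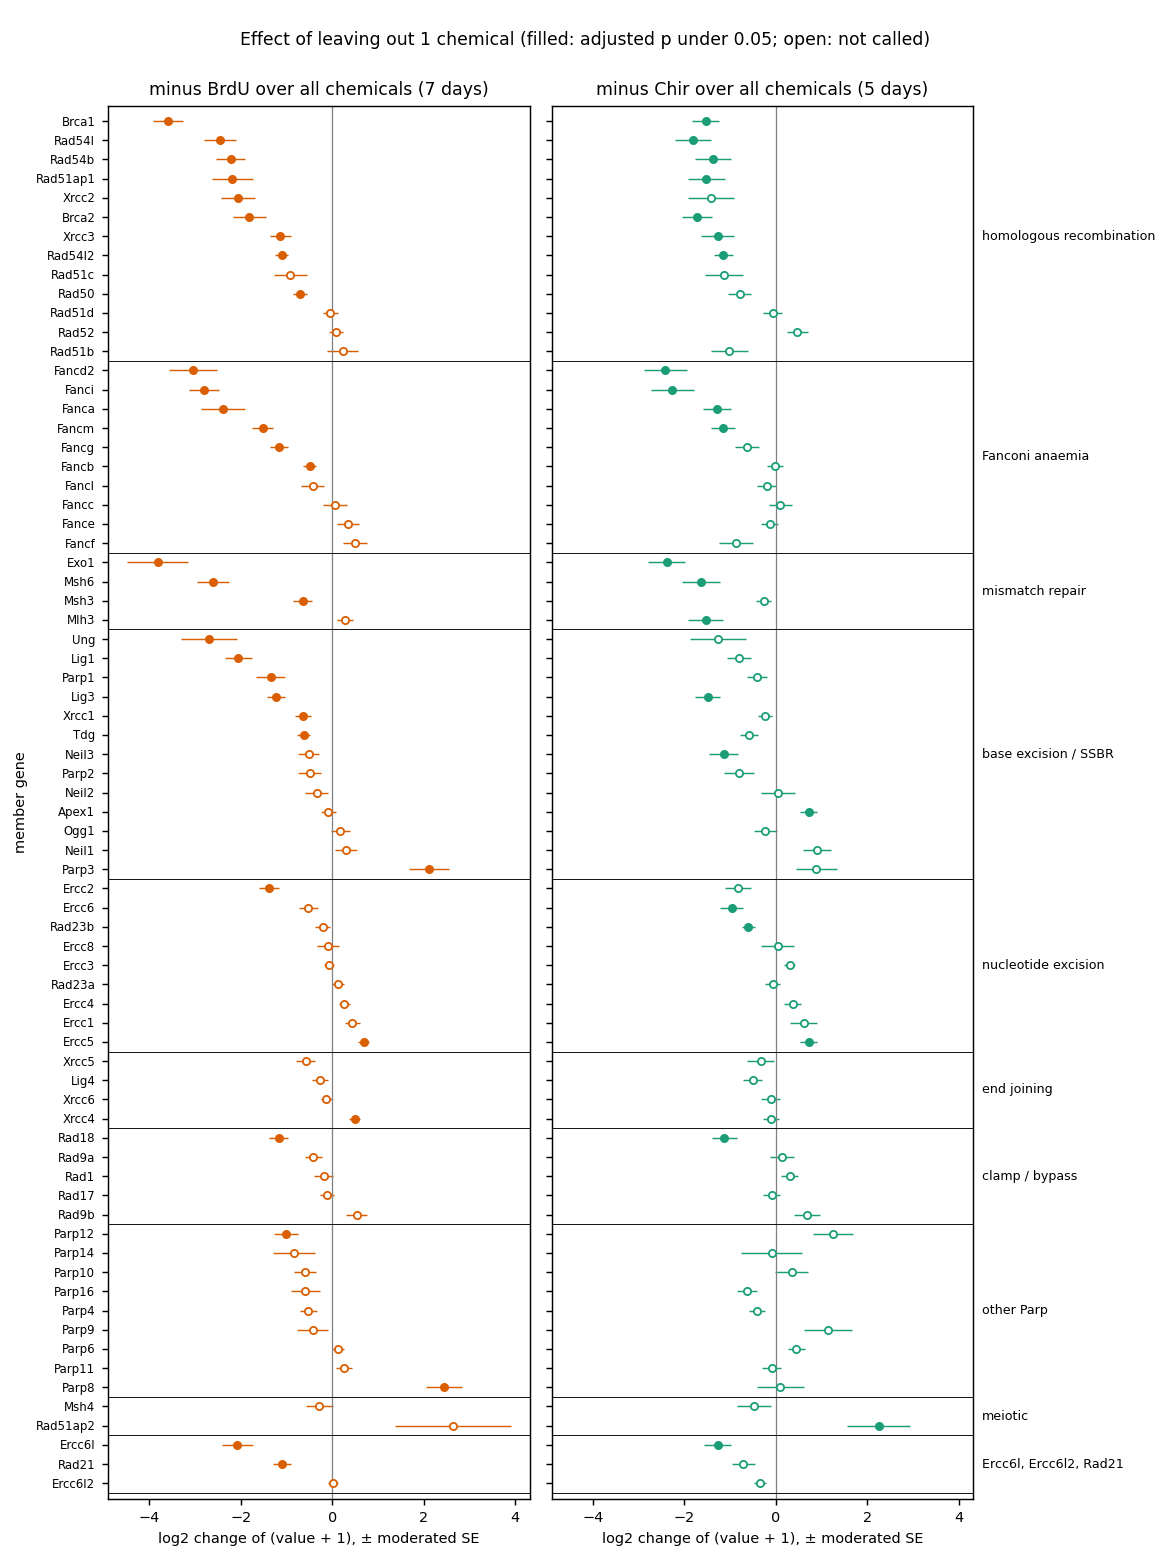
Change of each gene on leaving out BrdU (left, 7 days) or Chir (right, 5 days), as the log2 change of value + 1 with its moderated standard error, in rows by repair class. Filled points passed an adjusted p of 0.05. On the left most filled points lie below 0 in the upper 4 classes, from Exo1 at -3.82, and the filled points above 0 are Parp8, Parp3, Ercc5 and Xrcc4.

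**Figure D3:**
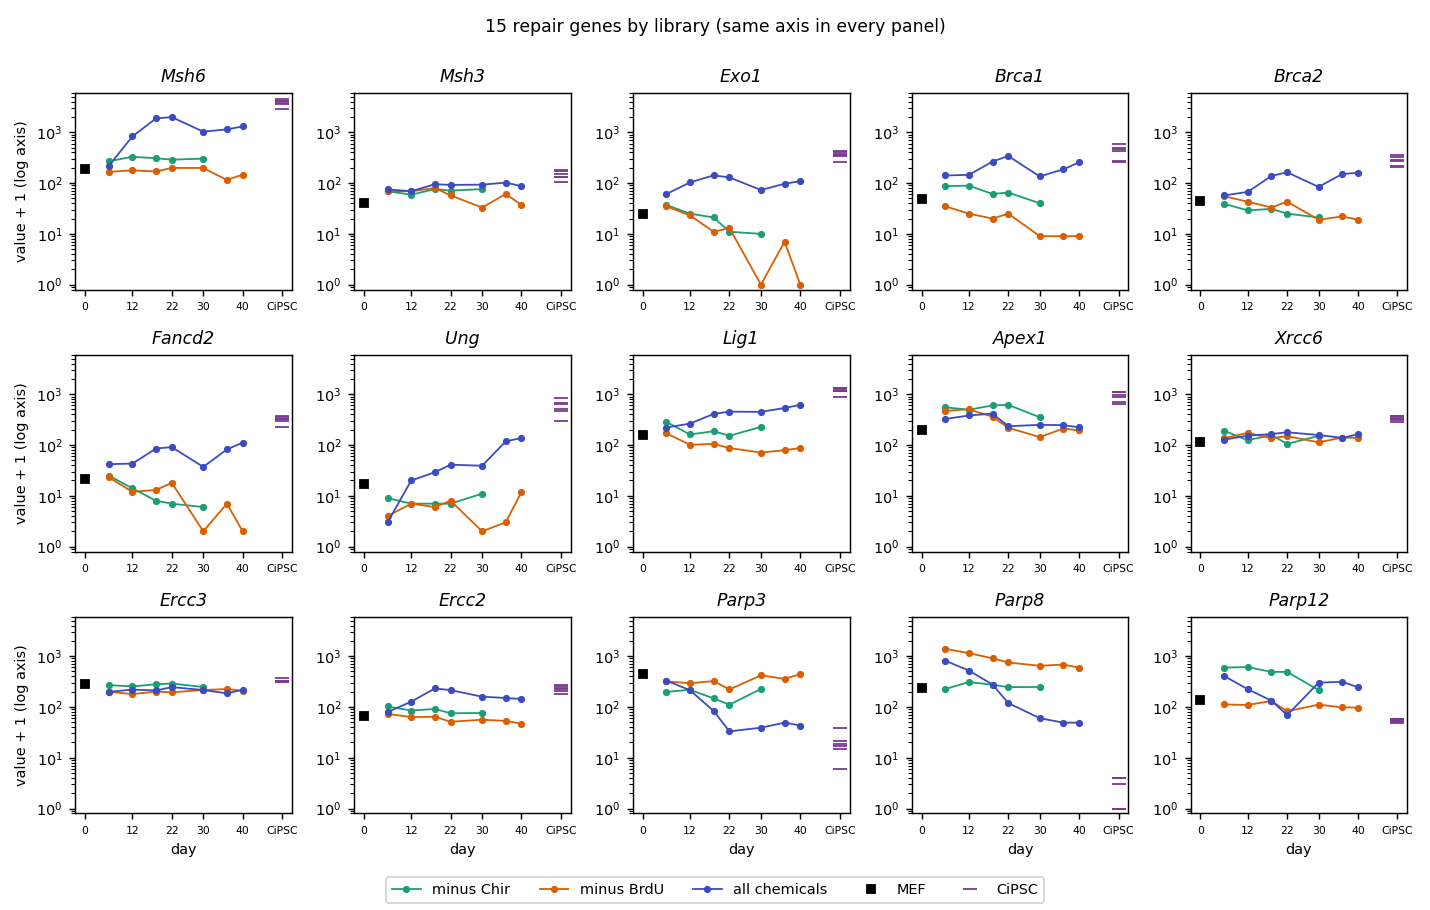
Values + 1 of 15 repair genes on a log axis against the day, with 1 point per library, MEF at day 0 and the 6 CiPSC libraries as bars at the right. Msh6 lies flat without BrdU and climbs to day 22 with all chemicals, Exo1 and Fancd2 descend without BrdU, and the 3 courses overlap for Xrcc6. Ercc3 lies higher without Chir, at 246 to 288, than without BrdU, at 178 to 224, or with all chemicals, at 184 to 244.

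Cell cycle genes moved with these members. Of 22 genes of DNA replication and S phase, none of them members, 19 were lower without BrdU (median change -1.75), and all 20 listed genes of mitosis were lower (median -2.84). The S phase list summed to between 1571 and 3235 without BrdU, against 3977 to 6729 with all chemicals. The mitosis list summed to between 243 and 2528 without BrdU, against 4234 to 7943. Markers of cell identity moved as well: without BrdU 9 of 12 fibroblast markers were higher, and 10 of 12 pluripotency and 11 of 12 extraembryonic endoderm markers lower. Fibroblast markers summed to between 43655 and 84921 without BrdU, against 9941 to 52557 with all chemicals. Here and below Pdgfra counts in both the fibroblast and the endoderm list, so the 2 lists are not separate. Its values lay between 942 and 4974 without BrdU and between 2556 and 6088 with all chemicals, with 5536 on day 22. The part of cell division and of cell identity in the change of the repair genes was not tested. Of 113 other repair genes in the table, 52 were lower and 11 higher (median -0.35). By class, 16 of 25 genes of homologous recombination were lower and 2 higher, 16 of 28 of the checkpoint and lesion bypass were lower, and 5 of 7 of mismatch repair were lower and 1 higher. In end joining 5 of 10 other genes were lower and 1 higher, in nucleotide excision repair 4 of 19 were lower and 4 higher, in base excision repair 4 of 14 were lower and 1 higher, and in the Fanconi anaemia pathway 2 of 7 were lower and 1 higher. They included Fignl1 (-3.34) and the helicase Blm (-2.47) in homologous recombination, the polymerase subunit Pold1 (-2.18), the checkpoint mediators Clspn (-2.39) and Topbp1 (-1.94), and the end joining factor Rif1 (-1.66). Higher ones included Mgmt, which removes alkyl groups from guanine (1.23), and the TFIIH subunit Gtf2h5 (0.95). Mbd4, a glycosylase for thymine and uracil opposite guanine, was lower (change -1.27), and Smug1, which takes up uracil and related bases beside Ung, was not called (-0.26).

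**Figure D4:**
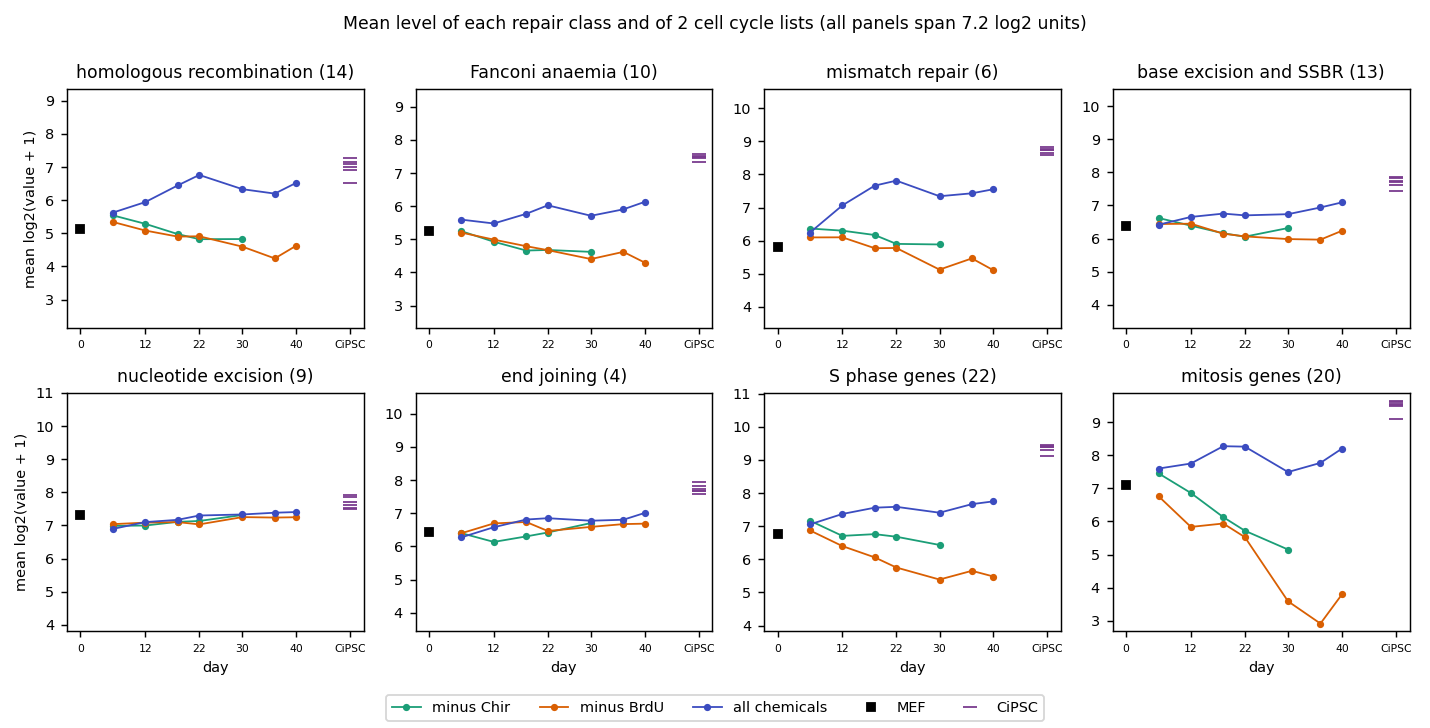
Mean of log2(value + 1) over the genes of 6 repair classes and 2 cell cycle lists against the day, with 1 point per library, MEF at day 0 and the CiPSC libraries at the right. Each panel spans the same number of log2 units. In the homologous recombination, Fanconi anaemia, S phase and mitosis panels every library without BrdU lies below every library with all chemicals, and in the nucleotide excision and end joining panels the courses overlap.

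The promoters of members that fell together were read for the E2F-type letters TTTCCCGC, TTTGGCGC and TTTCGCGC on both strands, in RefSeq windows of 300 bases (build GRCm38.p6, the same coordinates as mm10). RefSeq windows were matched for 56 of the 75 members, and 7 of them (12.5%) held at least 1 match. The matches lay in 5 of the 21 members that were lower without BrdU (23.8%) and in 2 of the other 35 (5.71%), against 573 of 27025 genes with a window (2.12%). Those 27025 include genes not measured here, so they are an unlike set. A gene with several windows was counted if any of them held a match. The windows of Msh6, Msh3, Brca2 and Fancg are shown because those genes fell and hold a match, and that of Brca1 because it fell and holds none. Lig1 also fell and holds a match but is not shown. Most of the members that fell hold none, so the windows printed do not follow the shares above. The windows of Brca2 and Fancg lie inside the spans of those genes (chr5:150522297-150570147 and chr4:43002337-43010567). They therefore hold no sequence before the outermost start of the gene. Capitals mark the match, which overlaps for 2 motifs in Msh3, and the sequences run 5′ to 3′ on the gene's strand, at chr17:87974800-87975099 (+) for Msh6, chr13:92354954-92355253 (-) for Msh3, chr5:150522371-150522670 (+) for Brca2, chr4:43010252-43010551 (-) for Fancg and chr11:101551906-101552205 (-) for Brca1.
Msh6: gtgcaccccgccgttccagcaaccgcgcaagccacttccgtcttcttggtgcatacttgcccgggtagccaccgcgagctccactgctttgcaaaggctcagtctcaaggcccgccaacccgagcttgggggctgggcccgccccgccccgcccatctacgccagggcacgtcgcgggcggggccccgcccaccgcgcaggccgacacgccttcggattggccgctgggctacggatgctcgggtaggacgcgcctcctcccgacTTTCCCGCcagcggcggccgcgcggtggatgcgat
Msh3: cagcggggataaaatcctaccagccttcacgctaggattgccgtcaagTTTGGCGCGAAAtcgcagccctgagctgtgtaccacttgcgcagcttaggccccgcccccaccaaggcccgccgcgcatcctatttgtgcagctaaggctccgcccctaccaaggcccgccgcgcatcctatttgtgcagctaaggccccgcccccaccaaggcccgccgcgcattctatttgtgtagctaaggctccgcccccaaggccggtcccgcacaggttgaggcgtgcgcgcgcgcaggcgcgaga
Brca2: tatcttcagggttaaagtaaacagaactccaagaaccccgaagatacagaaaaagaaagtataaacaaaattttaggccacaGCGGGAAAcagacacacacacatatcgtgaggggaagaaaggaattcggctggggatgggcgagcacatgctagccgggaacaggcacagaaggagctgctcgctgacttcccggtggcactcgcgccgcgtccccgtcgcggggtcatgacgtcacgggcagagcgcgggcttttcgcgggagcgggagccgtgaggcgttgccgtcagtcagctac
Fancg: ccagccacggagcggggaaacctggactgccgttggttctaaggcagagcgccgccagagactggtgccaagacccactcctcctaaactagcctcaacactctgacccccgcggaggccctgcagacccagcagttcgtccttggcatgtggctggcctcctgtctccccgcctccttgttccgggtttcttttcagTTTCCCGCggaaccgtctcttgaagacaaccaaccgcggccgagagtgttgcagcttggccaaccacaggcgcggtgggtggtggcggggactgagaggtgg
Brca1: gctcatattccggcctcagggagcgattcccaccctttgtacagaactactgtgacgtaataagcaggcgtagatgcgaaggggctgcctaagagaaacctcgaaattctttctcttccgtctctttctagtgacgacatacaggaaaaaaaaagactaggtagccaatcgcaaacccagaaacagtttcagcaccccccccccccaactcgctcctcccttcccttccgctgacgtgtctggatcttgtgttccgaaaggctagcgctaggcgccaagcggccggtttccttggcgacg
A match is a run of letters and no measured binding, and its absence covers only these windows.

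In few members was the gap between the courses another one on days 30 to 40 than on days 6 to 22. By a test of that difference, 3 members (4%) were lower late and 1 (1.33%) higher late, against 6.58% and 7.02% of all genes. Ung had an effect of -4.37 late and -1.43 early (difference -2.93 ± 0.79, adjusted p = 0.0428), and Fancd2 one of -4.52 late and -1.94 early (difference -2.58 ± 0.66, adjusted p = 0.0359). Rad23b, a carrier of the damage sensor Xpc, stood at 1532, 1580, 1647, 1872, 1270, 980 and 1225 without BrdU and at 1532, 1580, 1365, 1612, 1647, 1791 and 2033 with all chemicals. Its effect was -0.66 late and 0.12 early (difference -0.78 ± 0.20, adjusted p = 0.035). For Parp8 the effect was 3.61 late and 1.57 early (difference 2.04 ± 0.40, adjusted p = 0.0145). Without day 12, day 18 or day 40 in both courses limma called 0 members lower late, with 11, 20 and 9 at an unadjusted p under 0.05, and without day 36 it called 1 lower. The higher call of Parp8 was lost without day 36 or day 40, where limma called 0 members higher and 4 and 3 had an unadjusted p under 0.05. Without day 6 it called 6 members lower late, and without day 22 it called 3 higher late. Among the cell cycle genes, 14 of 20 mitosis genes and 1 of 22 S phase genes were lower late.

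There were 10 pairs of neighbouring members, with no other member between them, within 1000 kb of each other, and pairs did not always move alike. Ercc1 and Ercc2 lie 25.5 kb apart on chromosome 7, with changes of 0.44 (not called) and -1.38 without BrdU. Ogg1 and Fancd2 lie 196.8 kb apart on chromosome 6, with changes of 0.18 (not called) and -3.04. Parp3 and Rad54l2 lie 211.1 kb apart on chromosome 9 and moved in opposite directions (2.11 and -1.11). Parp2 and Apex1, 103.6 kb apart on chromosome 14, were both not called (-0.50 and -0.09). In 10 members at least 10% of exon bases are shared with another gene of the table, so reads of the 2 genes may have been split by the counting. They include Rad54b (39.1%, with Fsbp on the same strand), Lig3 (27.9%, with Rffl), Ercc2 (18.1%, with Gm26852), Fanci (13.4%, with Polg), Tdg (10.4%, with Glt8d2) and Parp9 (10.3%, with Dtx3l), all but the first on the opposite strand. Whether the counting used strand is not given in the sources used here.

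Leaving out Chir lowered members of several pathways over its 5 days. Of the 75 members, 20 (26.7%) were lower and 3 (4%) higher than with all chemicals, where 12.9% and 13.5% of all 16248 genes tested were lower and higher. Among the 72 members given one by one, the lower calls took in 7 of 13 genes of homologous recombination, 4 of 10 of the Fanconi anaemia pathway, 3 of 4 of mismatch repair and 2 of 13 of base excision and single-strand break repair. They also took in 2 of 9 genes of nucleotide excision repair, Ercc6 and Rad23b (changes -0.97 ± 0.25 and -0.60 ± 0.15), and 1 of 5 of the checkpoint clamp and lesion bypass, Rad18 (-1.13 ± 0.27). Without day 18 or day 22 in both courses limma called 0 members lower, with 20 and 21 at an unadjusted p under 0.05, and 0 higher, with 4 and 3 at that p. Without day 30 it called 7 lower, and without day 12 it called 1 higher. Without day 6 it called 30 lower. Rad54l and Fanca also lost the call without day 30, and Msh6, Mlh3, Neil3 and Ercc5 without day 12 or day 30.

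The clamp genes and Exo1 were lowest against the full course. Fancd2 stood at 24, 13, 7, 6 and 5 without Chir on days 6 to 30, against 41, 42, 84, 90 and 36 with all chemicals (change -2.42 ± 0.47, adjusted p = 0.0166). Fanci stood at 24, 15, 12, 8 and 6 without Chir against 36, 46, 100, 123 and 38 with all chemicals (change -2.27 ± 0.47, adjusted p = 0.0184). Exo1 had 36, 24, 20, 10 and 9 without Chir and 60, 102, 141, 128 and 72 with all chemicals (change -2.39 ± 0.41, adjusted p = 0.0132). In all 3 each later sampled day without Chir was lower than the one before it, and no ranges overlapped. Fanca, also lower, had 42, 26, 19, 16 and 20 without Chir against 68, 43, 77, 69 and 42 with all chemicals (change -1.29 ± 0.30). Rad54l had 47, 32, 26, 18 and 14 without Chir against 64, 75, 92, 146 and 97 with all chemicals (change -1.82 ± 0.39, adjusted p = 0.0203). Brca2 had 38, 28, 30, 24 and 20 without Chir against 56, 66, 137, 162 and 83 with all chemicals (change -1.72 ± 0.34, adjusted p = 0.0166). Brca1 had 86, 88, 60, 64 and 39 without Chir against 140, 144, 264, 340 and 134 with all chemicals (change -1.53 ± 0.30, adjusted p = 0.0165). Rad54l, Brca2 and Brca1 also had no overlap between courses.

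Of the mismatch repair genes, Msh6 and Mlh3 fell beside Exo1. Msh6 stood at 268, 328, 307, 288 and 302 without Chir and at 217, 826, 1875, 1985 and 1027 with all chemicals, higher without Chir on day 6 and lower on the other 4 days (change -1.64 ± 0.42, adjusted p = 0.0305). Mlh3 fell, with 26, 24, 15, 12 and 30 without Chir against 30, 56, 59, 90 and 91 with all chemicals (change -1.53 ± 0.38, adjusted p = 0.0271). Lig3 had 178, 167, 102, 108 and 106 without Chir against 287, 275, 453, 488 and 358 with all chemicals and no overlap (change -1.49 ± 0.27, adjusted p = 0.015). Neil3 also fell (change -1.14 ± 0.32), and Ung, Lig1, Parp1, Tdg, Xrcc1 and Ogg1 were not called, with changes between -1.27 (Ung) and -0.23 (Xrcc1). Among them Ung had 8, 6, 6, 6 and 10 without Chir against 2, 19, 28, 40 and 38 with all chemicals.

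The 3 rises without Chir were Apex1, Ercc5 and Rad51ap2. Apex1 stood at 552, 493, 600, 616 and 350 without Chir against 324, 380, 414, 233 and 248 with all chemicals, higher on each of the 5 days (change 0.71 ± 0.18, adjusted p = 0.0277). Ercc5 had 231, 374, 350, 361 and 564 without Chir against 200, 268, 216, 208 and 214 with all chemicals (change 0.71 ± 0.19, adjusted p = 0.032). Rad51ap2 had 42, 27, 39, 28 and 12 without Chir against 25, 13, 20, 0 and 0 with all chemicals, where it was listed at 0 on days 22 and 30, and the call was lost under 9 of 12 other settings. Ercc3 was not called, though its 5 values without Chir, 268, 252, 278, 288 and 246, lay above all of 197, 218, 210, 244 and 214 with all chemicals (change 0.30 ± 0.13, adjusted p = 0.116). The 4 end joining genes were not called, with Xrcc6 at 190, 123, 157, 104 and 150 without Chir against 126, 152, 163, 177 and 156 with all chemicals. Beside these values, 17 of 20 mitosis genes were lower without Chir (median -1.66), and 8 S phase genes were lower and 2 higher of 22 (median -0.56). Of the 113 other repair genes, 19 were lower and 7 higher. Markers of cell identity moved too: 8 of 12 pluripotency, 10 of 12 extraembryonic endoderm and 4 of 12 fibroblast markers were lower without Chir, and 10 of 23 interferon response genes were higher and 1 lower. On days 6 to 30 pluripotency markers summed to between 610 and 1590 without Chir, against 2737 to 9402 with all chemicals, and endoderm markers to between 4067 and 9055 without Chir, against 8060 to 72294. Much of the pluripotency sums was Klf4, at 1288, 734, 668, 930 and 470 without Chir against 2628, 2033, 2101, 6078 and 2164 with all chemicals. Klf4 stood at 1150 in MEF and at 682 to 923 in CiPSC, so these sums do not follow pluripotent identity alone. Fibroblast markers summed to between 9322 and 35567 without Chir, against 9941 to 52557 with all chemicals, and interferon response genes to between 6391 and 12146 without Chir, against 2584 to 9336. The part of the cell cycle genes and of cell identity in these changes was not tested.

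Set directly against each other on days 6 to 30, the courses without Chir and without BrdU differed in 21 members, 12 (16%) higher and 9 (12%) lower without Chir. Of all 16087 genes tested, 16.9% were higher and 15.2% lower, so the members' shares lay near the background. Brca1 had 86, 88, 60, 64 and 39 without Chir against 34, 24, 19, 24 and 8 without BrdU (change 1.66 ± 0.21, adjusted p = 0.00182). Msh6 had 268, 328, 307, 288 and 302 without Chir against 165, 177, 168, 198 and 197 without BrdU (change 0.72 ± 0.11, adjusted p = 0.00376). Brca1 and Msh6 were higher without Chir on each of the 5 days. Lig1 was higher on each day too, with 283, 160, 186, 151 and 226 without Chir against 168, 100, 104, 86 and 70 without BrdU (change 0.95 ± 0.18, adjusted p = 0.00728). Apex1 had 552, 493, 600, 616 and 350 without Chir against 471, 502, 358, 217 and 142 without BrdU, lower on day 12 (change 0.75 ± 0.24, adjusted p = 0.048, a call lost without day 6, 18, 22 or 30). Exo1, Fancd2, Fanci, Brca2 and Ung were not called, with changes between -0.36 (Brca2) and 0.84 (Exo1). Among the cell cycle genes, 13 of 22 S phase and 7 of 20 mitosis genes were higher without Chir at the threshold.

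Of the 9 other ADP-ribosyltransferases, 3 (Parp12, Parp9 and Parp10) were higher without Chir than without BrdU, 1 (Parp8) was lower and 5 were not called. Parp12 stood at 594, 608, 488, 488 and 214 without Chir against 111, 108, 130, 81 and 110 without BrdU (change 2.06 ± 0.24, adjusted p = 0.00139). Parp9, which works with the ubiquitin ligase Dtx3l, had 352, 306, 233, 240 and 152 without Chir against 62, 96, 110, 68 and 162 without BrdU and was lower on day 30 (change 1.39 ± 0.34, adjusted p = 0.0197). Parp10, a mono-ADP-ribosyltransferase, had 162, 153, 156, 123 and 112 without Chir against 54, 82, 87, 66 and 98 without BrdU (change 0.87 ± 0.20, adjusted p = 0.0164). Parp14, a macrodomain enzyme, was not called, with 121, 123, 75, 62 and 22 without Chir against 26, 50, 75, 72 and 58 without BrdU (change 0.38 ± 0.48). Of 23 interferon response genes, which include Dtx3l, 20 were higher and 1 lower without Chir than without BrdU (median 1.84). The list summed to between 6391 and 12146 without Chir, against 2513 to 3489 without BrdU on the same days. Macrophage and blood markers, of which 4 of 12 were higher, summed to between 744 and 1342 without Chir, against 119 to 366 without BrdU on the same days. The higher ones were Cd53, Lyz2, Laptm5 and Csf1r. Cd53 stood at 294, 634, 813, 844 and 400 without Chir against 83, 165, 212, 162 and 32 without BrdU. Lyz2 stood at 252, 301, 277, 278 and 97 without Chir against 116, 120, 29, 26 and 32 without BrdU. Among the 8 markers not called, Cd68 stood at 85, 72, 93, 136 and 263 without Chir against 60, 40, 50, 118 and 36 without BrdU, and C1qa, C1qc, Adgre1 and Tyrobp at 12 or less in every library without Chir. The part of interferon response and of blood cells in these values was not tested.

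On the other side, Parp8 stood at 224, 308, 272, 244 and 246 without Chir against 1392, 1142, 904, 748 and 644 without BrdU, with no overlap (change -1.85 ± 0.18, adjusted p = 0.000777). Mlh3 had 26, 24, 15, 12 and 30 without Chir against 60, 81, 58, 80 and 96 without BrdU, also apart on each day (change -1.81 ± 0.25, adjusted p = 0.00229). The Fanconi anaemia core subunit Fancf had 6, 4, 4, 7 and 6 without Chir against 16, 13, 18, 7 and 17 without BrdU (change -1.21 ± 0.36, adjusted p = 0.0406). Rad51b, a paralogue that acts in homologous recombination, had 14, 8, 7, 13 and 7 without Chir against 20, 19, 15, 24 and 20 without BrdU (change -0.97 ± 0.27, adjusted p = 0.0308). Parp3, Xrcc4, Rad23b, Ercc6l2 and Ercc6, the factor that senses a stalled polymerase, were lower by smaller amounts, with changes between -0.83 (Parp3) and -0.41 (Ercc6l2). Ercc6 had 46, 68, 60, 53 and 58 without Chir against 86, 80, 107, 104 and 92 without BrdU, and Rad23b had 1150, 1078, 1014, 1046 and 832 without Chir against 1532, 1580, 1647, 1872 and 1270 without BrdU. Parp3 had 197, 216, 146, 110 and 224 without Chir against 316, 292, 321, 220 and 417 without BrdU, and Xrcc4 had 84, 69, 88, 82 and 125 without Chir against 123, 161, 136, 100 and 149 without BrdU. Fancf, Rad51b, Ercc6 and Xrcc4 each lost the call without any 1 of at least 3 of the days, and Parp9 and Parp10 without day 18 or day 22. Fibroblast markers moved the same way, with 11 of 12 lower without Chir than without BrdU. Fibroblast markers summed to between 9322 and 35567 without Chir, against 43655 to 84050 without BrdU on those days, and their part was not tested. Leaving out day 18 or day 22 left 5 members higher and 4 or 5 lower, leaving out day 6 left 7 higher, and leaving out day 12 left 5 lower.

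Over the full course from MEF to day 40, 8 members (10.7%) had a rising linear trend and 3 (4%) a falling one, against 9.31% and 7.42% of all 16314 genes tested. Ung stood at 16 in MEF and then at 2, 19, 28, 40, 38, 117 and 136, a slope of 1.04 ± 0.23 log2 units per 10 days (adjusted p = 0.0167). Lig1 stood at 154 in MEF and then at 219, 263, 408, 452, 448, 534 and 616 (slope 0.46 ± 0.06, adjusted p = 0.00323). Parp1 stood at 284 in MEF and then at 332, 392, 494, 492, 454, 776 and 1014 (slope 0.40 ± 0.07, adjusted p = 0.00638). The level of Ung was lowest on day 6, and those of Lig1 and Parp1 were highest on day 40. Neil2, a glycosylase for oxidised bases, had 4 in MEF and then 10, 12, 10, 11, 34, 24 and 32 (slope 0.61 ± 0.15, adjusted p = 0.0235). Brca2, Rad54b, Parp2 and Rad50 had slopes between 0.25 (Rad50) and 0.42 (Brca2). Parp8 (237 in MEF, then 812, 518, 275, 118, 59, 48 and 48) and Parp3 (444 in MEF, then 328, 212, 82, 32, 38, 48 and 42) fell, with slopes of -0.96 ± 0.19 and -0.93 ± 0.17. Rad51ap2, at 40 in MEF and listed at 0 from day 22 on, fell too, by a slope that depends on the value of 1 added before the logarithm. The rising calls numbered 2 without day 40, 3 without day 36 and 5 without MEF or without day 12. The trend of Ung was not called without day 36 or day 40, that of Neil2 without MEF, day 30, 36 or 40, and that of Brca2 without MEF or day 6, 12, 36 or 40. Of 22 S phase genes 7 had a rising and 1 a falling trend at the threshold, and the median slope of 20 mitosis genes was 0.18.

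Many members did not follow a straight line. Within MEF and the full course, 21 of 75 members (28%) were highest on day 22, against 11.3% of all genes, and 16 (21.3%) on day 40, against 12.4%. In MEF 8 members (10.7%) were highest, against 24.3% of all genes. Msh6, Brca1, Brca2 and Fanci were among the genes with their highest value on day 22, then a lower value on day 30 and a higher one on day 40. Parp9, Parp10 and Parp14 ran the other way between those days: on days 22 and 30 with all chemicals, Parp9 stood at 32 and 344, Parp10 at 52 and 281 and Parp14 at 34 and 254. The interferon response list summed to 2584 on day 22 and 9336 on day 30, and the mitosis list to 7943 and 4234 on those days. These are values of 1 library each, and no test was made.

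Set against CiPSC, most members were lower in MEF. Of the 75 members, 43 (57.3%) were lower and 3 (4%) higher in MEF, where 22.2% and 17.9% of all 16416 genes tested were lower and higher (40.2% in either direction). On day 40 without BrdU 46 (61.3%) were lower and 4 (5.33%) higher, against 22.4% and 19% of all genes. On day 40 with all chemicals 24 (32.0%) were lower and 4 (5.33%) higher, against 14.8% and 12.7%. These 3 comparisons share the CiPSC libraries and take the spread from them alone, each lone library being assumed to vary as they do, and the p-values measure that spread only. The CiPSC libraries also carry another style of title than MEF and the courses. If they were prepared apart, that cannot be told apart from cell state in any comparison with CiPSC. By range, 54 of the 75 members lay below all CiPSC libraries in MEF and 11 above, and on day 40 without BrdU 49 and 13. With all chemicals 47 lay below and 12 above on day 40, and 38 and 8 on day 22. Shares over all genes were not counted by range, so these counts do not show whether members differ from other genes. S phase genes were lower than in CiPSC for 21 of 22 genes in MEF, 22 of 22 on day 40 without BrdU and 20 of 22 on day 40 with all chemicals, and their part in the result was not tested.

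Of the mismatch repair genes, Msh6 and Exo1 were far below CiPSC in MEF and on day 40 without BrdU. Mlh3 was nearer to it, at 60 in MEF and 99 on day 40 without BrdU, against 81 to 148 in CiPSC. Msh6 stood at 184 in MEF, 146 on day 40 without BrdU and 1302 on day 40 with all chemicals, against 3846, 3633, 4208, 4506, 2907 and 4208 in the 6 CiPSC libraries. The changes against CiPSC were -4.38 ± 0.23 for MEF, -4.71 ± 0.23 for day 40 without BrdU and -1.56 ± 0.23 for day 40 with all chemicals (adjusted p = 4.34e-05, 2.58e-05 and 0.00638). Exo1 stood at 24, 0 and 108 in that order, against 262 to 433 in CiPSC. For both genes the library of the full course stood nearest to CiPSC and still below its range. Ung stood at 16 in MEF, 11 without BrdU and 136 with all chemicals, against 566 ± 187 in CiPSC (SD, n = 6). Its changes against CiPSC were -4.98 ± 0.52, -5.49 ± 0.52 and -1.97 ± 0.52, and the last call was lost without CiPSC library 1, 3, 4 or 6.

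For Fancd2 and Fanca too, the full course stood nearest to CiPSC. Fancd2 stood at 20 in MEF, 1 on day 40 without BrdU and 110 on day 40 with all chemicals, against 315 ± 51.6 in CiPSC (SD, n = 6), and Fanca at 32, 1 and 78 against 299 ± 73.9. Brca1 was called in MEF (change -3.04 ± 0.47) and on day 40 without BrdU (-5.49 ± 0.47). It was not called on day 40 with all chemicals, at 254 against 264 to 586 in CiPSC (-0.67 ± 0.47, adjusted p = 0.351). Brca2 was likewise not called on day 40 of the full course (-0.77 ± 0.33). Ercc6l, the mitotic motor, was lower on day 40 of the full course, at 90 against 304 to 486 in CiPSC (change -2.05). Fancf, a core subunit, stood at 24 in MEF, 26 on day 40 without BrdU and 13 on day 40 with all chemicals, against 53 to 81 in CiPSC. It was lower in all 3 (changes -1.46, -1.35 and -2.30), and here the library of the full course stood farthest from CiPSC.

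Base excision and end joining genes were lower than in CiPSC as well. Apex1 stood at 192 in MEF, 192 on day 40 without BrdU and 221 on day 40 with all chemicals, against 905 ± 204 in CiPSC, lower in all 3 (adjusted p = 0.00398, 0.0036 and 0.01). This gene was not called between the courses with and without BrdU. Lig1, a call lost without CiPSC library 1, 3, 4 or 6, and Parp1 were lower on day 40 of the full course (changes -0.93 and -1.26), as were Xrcc5, Xrcc6 and Xrcc1 (changes -1.17, -1.02 and -0.48). Tdg, Lig4 and Lig3 were lower in MEF (changes -1.29, -1.15 and -1.14) and not called on day 40 of the full course. Ogg1 and Neil3 were not called in MEF (-0.56 and -0.56). Ercc1 was not called in any of the 3 comparisons, with CiPSC values spread from 22 to 180.

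ADP-ribosyltransferases made up the members called higher than CiPSC. By range other members lay above it too without a call, such as Ercc5, at 398 on day 40 without BrdU against 147 to 318. Parp8 stood at 237 in MEF, 592 on day 40 without BrdU and 48 on day 40 with all chemicals, against 2, 3, 3, 0, 0 and 0 in CiPSC, where 3 libraries listed it at 0. Parp3 stood at 444, 440 and 42 in that order, against 38, 16, 14, 20, 5 and 18 in CiPSC, and was called in MEF and without BrdU (adjusted p = 0.00861 and 0.00815). Parp12 was higher in MEF, on day 40 without BrdU and on day 40 with all chemicals, at 133, 96 and 242 against 52.7 ± 3.27 in CiPSC (changes 1.32 ± 0.15, 0.86 ± 0.15 and 2.18 ± 0.15). Parp6 was higher on day 40 without BrdU and with all chemicals, at 122 and 132 against 42 to 72 in CiPSC, and both calls were lost without CiPSC library 1, 2, 3, 5 or 6. Parp9 was higher on day 40 with all chemicals, at 258 against 24 to 80, a call lost under 8 of 11 other settings. Without CiPSC library 1, 2 or 3, 2 members were higher on day 40 with all chemicals. Interferon response genes stood higher too, with 12 of 23 called higher than CiPSC in MEF, 11 on day 40 without BrdU and 12 on day 40 with all chemicals, and their part in the result was not tested.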

How the data were processed

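Per the labels' protocols, total RNA was extracted with TRIzol, a TruSeq RNA kit gave the libraries, and a NextSeq 500 read them. Per the submitters' processing notes, bcl2fastq, Bowtie2 and RSEM were used with the mm10 build; versions and strand settings are not given in the sources used here. The deposited values are scores: whole numbers that the authors named CPM, but that share 1 quantile-normalized distribution in all libraries, so no count test was possible and the depth behind a value is unknown.

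Values were tested as log2(value + 1) in genes with a mean of at least 1, with limma 3.58.1 in R 4.3.3 (intensity trend, Benjamini-Hochberg adjustment over all genes tested, 2-sided). Courses were compared with the day as a block, since the labels give the courses the same sampling days. The full course was fitted as a slope per 10 days with MEF as day 0, and MEF and both day 40 libraries were set against the 6 CiPSC libraries in 1 fit. The script was tested on simulated data. The 75 members, gene lists and tests were chosen with earlier results of these data known. For 3 members no values are reported here one by one, though they enter counts over all 75 and class means. Any other member may be named; values in every library, or the lowest, median and highest of a course, were given for the 8 largest called falls and rises between courses, the 5 largest of the other comparisons, and 23 genes listed by role. Alternatives were other pseudocounts (0.5 and 5), filters (none, or a mean of at least 10), no trend, no day block, days 6 to 30, 1 fit over 3 courses, and leaving out each day or CiPSC library. Positions are mm10; promoter windows are from RefSeq (GRCm38.p6).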

Additional observations from a re-analysis of the deposited data

Results flagged for a closer look

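Among the 6 CiPSC libraries, 4 of the 75 genes had 1 library far from the rest by Dixon's gap ratio, which flags about 1 in 20 groups by chance. Parp10 stood at 57 in library 2 and at 0 to 20 in the others. Rad51ap2 stood at 36 in library 1 and was listed at 0 in the others. Parp2 stood at 100 in library 2 and at 200 to 239 in the others. Parp6 stood at 42 in library 4 and at 63 to 72 in the others.

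In 4 genes the change without BrdU was another one on days 30 to 40 than on days 6 to 22, by limma's test of that difference. The late minus early difference was -2.93 for Ung, -2.58 for Fancd2, -0.78 for Rad23b and 2.04 for Parp8 on the log2 scale.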

How the results depend on the processing

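Of 1590 values under other settings, for named genes that were called with the settings above, 1417 kept their call, 173 lost it and 0 changed direction. Named genes not called with the settings above were left out, so gained calls do not appear in this count. On days 6 to 30 alone, 24 members were lower and 2 higher without BrdU and 3735 genes were called. The late against early test called 5 members lower with a mean of at least 10 and, in limma without the intensity trend, 0 lower (18 at an unadjusted p under 0.05). Without the trend limma called 0 members higher without Chir (6 unadjusted). With 1 fit over the 3 courses, 33 members were lower and 9 higher without Chir, with 6895 genes called.

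The day paired the courses. With no replicate block (no day block), 34 members were lower and 4 higher without BrdU, with 6189 genes called. Without Chir, 23 were lower and 3 higher, with 4111 genes called, and against the course without BrdU 11 were higher and 10 lower, with 4660 called. The late against early test then called 6 lower and, in limma, 0 higher (3 unadjusted), with 1599 genes called.

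Leaving out each day or CiPSC library in turn gave these ranges. Without BrdU, 30 to 36 members were lower, 4 to 6 higher and 5366 to 7428 genes called. Late against early, 0 to 6 were lower, 0 to 3 higher and 713 to 2472 genes called. Without Chir, 0 to 30 were lower, 0 to 4 higher and 25 to 4994 genes called, the lowest without day 18. Without Chir against without BrdU, 5 to 9 were higher, 4 to 8 lower and 2772 to 4783 genes called. For the slope, 2 to 8 rose, 3 fell and 1377 to 2862 genes were called. Against CiPSC, 40 to 44 were lower in MEF, 43 to 46 on day 40 without BrdU and 18 to 27 on day 40 with all chemicals. Against CiPSC, 3 to 4 were higher in MEF, 3 to 4 without BrdU and 2 to 3 with all chemicals, and 5765 to 6737, 6009 to 7012 and 3486 to 4526 genes were called in that order. The cause of these changes was not tested. Depth is unknown, low values are coarse, and each course is 1 culture series.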
